A study of Mus musculus with 12 samples.

Results

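The 10 genes described here belong to the Hippo pathway and its transcriptional output, and were measured in a mouse kidney tubular cell line. They were the coactivator genes *Yap1* and *Wwtr1* (which encodes TAZ), the DNA-binding partners *Tead1* and *Tead2*, the pathway regulators *Lats2*, *Ajuba* and *Amotl2*, and the target genes *Ankrd1*, *Axl* and *F3*. *Lats2* and *Amotl2* are also commonly counted as YAP and TAZ targets. The 10 genes were chosen by symbol, with earlier results of these data known, out of 55487 genes in the table. All 10 matched 1 mouse identifier each and passed the filter on low counts, which left 13581 genes for testing.

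The cells were im-TEC, 1 line of conditionally immortalized mouse tubular epithelial cells. All groups carried the SV40 large T antigen, were kept at 33 °C with interferon-gamma, and spent 7 days at 37 °C without it before seeding, which lowers the antigen's activity. Treatment lasted 48 h and gave 4 groups with 3 libraries each: an untreated control, 50 µM 5-amino-1-methylquinolinium, an inhibitor of the enzyme NNMT (nicotinamide N-methyltransferase), 10 ng/mL TGFβ, and both agents (the combined group). The labels do not state whether replicates were separate cultures. The p-values therefore cover just the spread among these libraries, which may be technical.

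In the Hippo pathway the kinases MST1 and MST2 activate LATS1 and LATS2, which phosphorylate YAP and TAZ and keep them in the cytoplasm or mark them for degradation. Unphosphorylated YAP and TAZ enter the nucleus and bind TEAD proteins, which recognise the sequence CATTCC, to raise transcription of genes such as *Ankrd1*, *Ccn1* and *Ccn2*. The activity of YAP and TAZ follows cell shape, contact and tension in the actin cytoskeleton, and their control is largely at the level of protein, which messenger RNA does not show. In kidney tubules the pathway is known for its part in injury, repair and fibrosis, where it meets TGFβ signalling.

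The TEAD motif was searched in the RefSeq promoters of the 10 genes, to show which of the genes described below carry it next to their start. These windows (build GRCm38.p6) run from 250 bases before to 50 bases after the annotated start, and the motif was counted as CATTCC or, on the other strand, GGAATG. Promoters of 9 of the 10 genes were matched, and 7 of the 9 held at least 1 copy, against 16.6% of all 27025 symbols with a promoter of this length. *Ankrd1* and *Ajuba* held 2 copies each, and *Yap1*, *Wwtr1*, *Amotl2*, *Lats2* and *Axl* held 1. The copy in *Lats2* lay after the start. The windows of *Tead2* and *F3* held neither string. Of 32 other pathway genes with a promoter, 12 held the motif (37.5%). A match is a description of the letters and does not show that a TEAD protein binds there. The 250 bases before the start are printed 5′ to 3′ on the gene's strand, with the motif in capitals. As a check, the last bases of each window were sought near the 5′ end of the gene's GENCODE transcripts. They were found for *Ankrd1* but not for *Axl*, *Ajuba* or *Tead2*. Positions in those windows therefore rest on the RefSeq start alone. *Ankrd1* and *Axl* are shown because they responded to both agents, *Ajuba* because its copies lie close together, and *Tead2* as a responding gene without the motif.
Ankrd1 (chr19:36119845-36120094, minus strand): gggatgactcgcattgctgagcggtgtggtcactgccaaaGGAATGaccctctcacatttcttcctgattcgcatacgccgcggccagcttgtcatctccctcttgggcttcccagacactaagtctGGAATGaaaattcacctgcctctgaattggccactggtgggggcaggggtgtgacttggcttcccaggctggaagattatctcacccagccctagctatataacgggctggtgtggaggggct
Axl (chr7:25788734-25788983, minus strand): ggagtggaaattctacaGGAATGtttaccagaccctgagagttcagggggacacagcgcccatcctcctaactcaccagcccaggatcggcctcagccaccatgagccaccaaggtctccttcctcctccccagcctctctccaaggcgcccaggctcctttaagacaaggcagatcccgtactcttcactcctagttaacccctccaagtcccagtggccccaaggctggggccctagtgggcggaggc
Ajuba (chr14:54577662-54577911, minus strand): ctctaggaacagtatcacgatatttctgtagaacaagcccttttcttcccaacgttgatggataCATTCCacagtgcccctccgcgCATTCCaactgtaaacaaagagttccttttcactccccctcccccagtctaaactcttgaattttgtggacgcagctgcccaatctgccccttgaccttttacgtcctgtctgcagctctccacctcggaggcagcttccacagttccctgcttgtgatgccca
Tead2 (chr7:45215542-45215791, plus strand): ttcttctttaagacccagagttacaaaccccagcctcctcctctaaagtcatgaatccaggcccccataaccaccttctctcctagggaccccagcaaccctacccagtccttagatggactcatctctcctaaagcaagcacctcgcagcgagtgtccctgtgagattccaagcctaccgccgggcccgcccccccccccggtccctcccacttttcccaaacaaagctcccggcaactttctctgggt
Counted from the start, the copies in *Ankrd1* covered bases -210 to -205 and -123 to -118, both as GGAATG. The *Axl* copy covered bases -233 to -228, also as GGAATG, and the *Ajuba* copies bases -186 to -181 and -164 to -159, both as CATTCC.

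Libraries held 2584117 to 11866903 counts in genes, the lowest being TGFβ replicate 3. Levels are CPM, counts relative to a common library size after TMM scaling. At these depths 3 counts were worth 0.266 to 1.15 CPM. TGFβ replicates differed most, with a biological coefficient of variation of 0.227, against 0.0657 in controls, 0.0885 for the inhibitor and 0.111 for both agents. Mitochondrial transcripts took 11.8 ± 0.562% of counts with the inhibitor (SD, n = 3) against 7.61 ± 0.519% in the controls, and 8.13 ± 0.762% in the combined group against 6.83 ± 1.33% with TGFβ. Of 13 tubular epithelial markers 9 were tested. *Epcam* and *Slc34a1* were at 0 and *Cdh1* and *Hnf4a* below 1 CPM in every library, so these defining markers were absent or nearly so. The summed level of the list was 1884 to 2044 CPM in control cells, 1913 to 1966 with the inhibitor, 702 to 1096 with TGFβ and 685 to 715 in the combined group. Of 8 fibroblast markers *Pdgfra*, *Dpt*, *Lum*, *Meox1* and *Tcf21* were at 0 and *Dcn* below 1 CPM in every library. Just *Pdgfrb* and *Col1a2* of the list reached 1 CPM in any library, and 2 of the 8 were tested. The list summed to at most 1.67 CPM without TGFβ, 12.0 to 15.7 with TGFβ and 2.20 to 4.23 in the combined group. All 5 endothelial markers were below 1 CPM. Of 5 leukocyte markers *Adgre1* was at 0 and *Ptprc* and *Cd3e* below 1 CPM, and the list summed to 73.8 to 79.0 CPM in control cells, 59.8 to 71.3 with the inhibitor, 43.3 to 58.5 with TGFβ and 25.8 to 31.6 in the combined group. Their part in the results below was not tested. In such bulk samples a change in the share of cells that express a gene and a change in RNA per cell cannot be told apart.

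A gene counts as called where edgeR's quasi-likelihood test gave an adjusted p (Benjamini-Hochberg) under 0.05, and changes are log2 fold changes ± SE. Because the genes were chosen with earlier results known, their p-values describe these libraries and are not independent support. TGFβ against control, inhibitor against control and the combined group against control share the control libraries. With TGFβ, 5 of the 10 genes were called, all higher. Of all tested genes 36.5% were called there, 19.4% higher and 17.1% lower. With the inhibitor alone 2 were called, both lower, against 8.27% of all genes (2.47% higher and 5.8% lower). Between the combined group and TGFβ 3 were called, 1 higher and 2 lower, against 10.4% (3.45% higher and 6.97% lower). In cells that all had the inhibitor, adding TGFβ gave 5 calls, all higher, against 36.3% (18% higher and 18.3% lower). The combined group against control gave 6, all higher, against 31.8% (15.3% higher and 16.5% lower). The interaction, which is the inhibitor's effect with TGFβ minus its effect without, was called for *Ankrd1* alone of the 10, against 1.11% (0.641% above and 0.471% below 0). By the looser measure of libraries that did not overlap between groups, 5 of the 10 genes were separated with TGFβ (45.4% of all genes), 7 with the inhibitor (35.6%) and 4 between the combined group and TGFβ (23.9%). Between the combined group and the inhibitor 7 were separated (52.1%), and between the combined group and control 8 (51.9%).

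**Figure D1:**
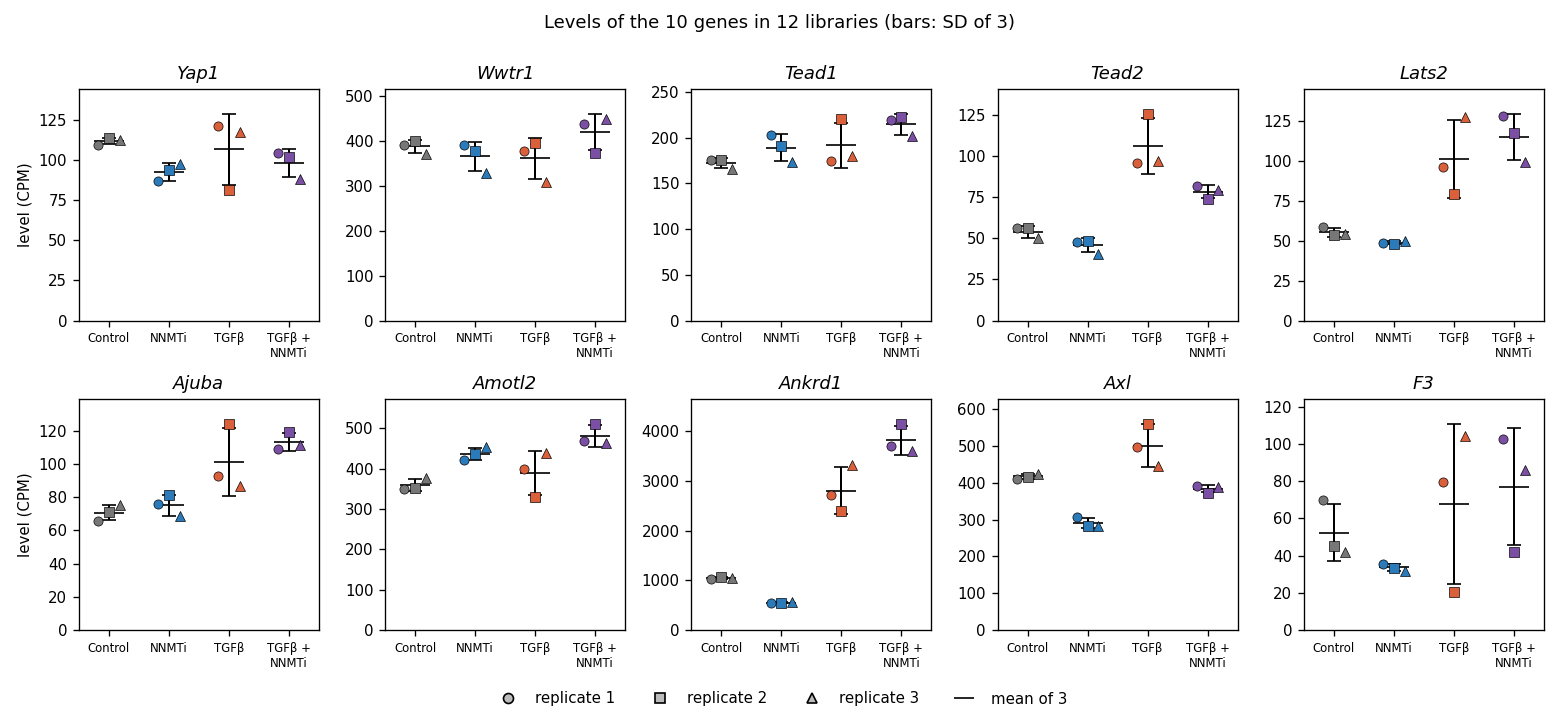
Level of each of the 10 genes in CPM (linear axes from 0) in the 4 groups, with points for the 3 libraries and bars for mean ± SD. *Ankrd1* was lowest with the inhibitor alone and highest in the combined group, while the means of *Yap1* stayed between 92.6 and 112 CPM.

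The coactivator genes *Yap1* and *Wwtr1* were called in no comparison. *Yap1* (ENSMUSG00000053110) encodes YAP, and its level was 109.6, 114 and 112 CPM in control cells, 86.7, 93.7 and 97.4 with the inhibitor, 121, 81.4 and 117 with TGFβ, and 104, 102 and 88.0 with both agents. Every library with the inhibitor alone lay below every control, while the TGFβ libraries spanned the controls, with replicate 2 at the bottom. Group means ran from 92.6 ± 5.46 CPM with the inhibitor to 112 ± 2.01 CPM in the controls (SD, n = 3). The log2 difference with TGFβ was -0.08 ± 0.13 (interval of ±2 SE from -0.33 to 0.18, adjusted p 0.684 in edgeR). The inhibitor alone gave -0.27 ± 0.13 (adjusted p 0.223). Without TGFβ replicate 2 that adjusted p was 0.0174, with sample quality weights in voom 0.0123, and with only the 2 groups compared 0.00591, so that *Yap1* was called lower in those fits. The combined group stood at -0.19 ± 0.13 from control (adjusted p 0.278, and 0.0375 with only those 2 groups).

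*Wwtr1* (ENSMUSG00000027803), the gene of TAZ, had 391, 401 and 371 CPM in control cells, 390.1, 378 and 329 with the inhibitor, 378, 396 and 308 with TGFβ, and 437, 374 and 448 with both agents. The groups overlapped in all 5 comparisons. From the highest mean to the lowest the order was the combined group, control, inhibitor and TGFβ, and no neighbours in it differed beyond their spread. TGFβ gave -0.10 ± 0.11 (±2 SE from -0.32 to 0.12, adjusted p 0.521). The combined group against the inhibitor gave 0.20 ± 0.11 (adjusted p 0.166), which was called without TGFβ replicate 2 (0.0431) and with sample quality weights in voom (0.0376).

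Of the TEAD genes, *Tead2* was called higher with TGFβ, while *Tead1* was called only in the combined group against control. *Tead1* (ENSMUSG00000055320) had 176, 175 and 166 CPM in control cells, 203, 191 and 173 with the inhibitor, 174, 220.2 and 180.2 with TGFβ, and 219.7, 222 and 202 with both agents. Only the combined group lay wholly above the controls. It was 1.25-fold higher (0.32 ± 0.10, adjusted p 0.0246), a call that was lost without any 1 control (adjusted p 0.0573, 0.0624 and 0.099 without replicates 1, 2 and 3) or without combined replicate 1 (0.0674) or 2 (0.0632). It was also lost with scaling by library size only (0.129) and with all libraries thinned to the shallowest (0.117). The change with TGFβ alone was 0.16 ± 0.10 (adjusted p 0.261), and with the inhibitor alone 0.13 ± 0.10 (adjusted p 0.504). The combined group stood at 0.16 ± 0.10 from TGFβ (adjusted p 0.356) and 0.18 ± 0.10 from the inhibitor (adjusted p 0.18), and both were called without TGFβ replicate 2 (0.0344 and 0.0369), the first also in voom (0.0432).

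*Tead2* (ENSMUSG00000030796) had 56.1, 56.0 and 49.9 CPM in control cells and 48.0, 48.1 and 40.7 with the inhibitor. It had 95.6, 125 and 97.2 CPM with TGFβ and 81.5, 73.8 and 79.4 with both agents. The 4 groups did not overlap, in the order TGFβ, combined, control and inhibitor. TGFβ raised *Tead2* 1.97-fold, from 54.0 ± 3.58 to 106 ± 16.8 CPM (0.98 ± 0.12, adjusted p 4.15e-06), and 1.71-fold where the inhibitor was present (0.78 ± 0.12, adjusted p 5.57e-05). The inhibitor lowered it 1.36-fold in TGFβ-treated cells, to 78.2 ± 3.96 CPM (-0.45 ± 0.12, adjusted p 0.0231). This call was lost without TGFβ replicate 2 (adjusted p 0.0728), without combined replicate 1, 2 or 3 (0.0569, 0.0934 and 0.074) and with only the 2 groups compared (0.129). The combined group remained 1.45-fold above control (0.53 ± 0.12, adjusted p 0.00215). In the absence of TGFβ the inhibitor's change was -0.24 ± 0.12 (adjusted p 0.264), and the interaction was -0.20 (adjusted p 0.743), so the inhibitor's effects with and without TGFβ were not shown to differ. *Tead2* overlaps *Cd37* on the opposite strand in the GENCODE M21 annotation, and the strand used in counting is not given in the sources used here. *Yap1*, *Wwtr1*, *Lats2* and *Tead1* also overlap genes on the other strand, and *Lats2* and *Tead1* a predicted gene on their own strand as well.

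Of the pathway regulators, *Lats2* and *Ajuba* rose with TGFβ, and *Amotl2* was highest in both groups with the inhibitor. *Lats2* (ENSMUSG00000021959), a kinase that phosphorylates YAP and TAZ and is itself a target of theirs, had 58.5, 53.5 and 54.0 CPM in control cells, 48.7, 47.9 and 50.0 with the inhibitor, 96.1, 79.5 and 128 with TGFβ, and 128, 118 and 99.7 with both agents. Every library with TGFβ lay above every library without it. TGFβ raised *Lats2* 1.80-fold without the inhibitor (0.85 ± 0.14, adjusted p 0.000118) and 2.36-fold with it (1.24 ± 0.14, adjusted p 1.3e-06). The inhibitor's own changes were -0.18 ± 0.14 without TGFβ (adjusted p 0.519) and 0.21 ± 0.14 with it (adjusted p 0.37, and 0.0354 without TGFβ replicate 3). Their difference, the interaction, was 0.39 (adjusted p 0.514). The combined group was 2.08-fold above control (1.06 ± 0.14, adjusted p 9.3e-06).

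*Ajuba* (ENSMUSG00000022178), a LIM-domain protein that holds back LATS kinases, had 65.8, 71.3 and 75.3 CPM in control cells, 75.9, 81.3 and 68.6 with the inhibitor, 92.5, 124 and 86.9 with TGFβ, and 109, 119 and 111 with both agents. The libraries split by TGFβ with no overlap, and on either side of that split the inhibitor and no-inhibitor libraries overlapped. TGFβ raised it 1.44-fold alone (0.53 ± 0.13, adjusted p 0.00268) and 1.5-fold beside the inhibitor (0.59 ± 0.12, adjusted p 0.000988). The inhibitor's changes were 0.09 ± 0.13 (adjusted p 0.761) and, in TGFβ-treated cells, 0.15 ± 0.12 (adjusted p 0.49, and 0.0322 without TGFβ replicate 2). With both agents *Ajuba* was 1.60-fold above control (0.68 ± 0.12, adjusted p 0.000331).

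*Amotl2* (ENSMUSG00000032531), an angiomotin-family protein that binds YAP and TAZ at junctions, had 349.6, 351 and 376 CPM in control cells, 422, 435 and 452 with the inhibitor, 398, 329 and 437 with TGFβ, and 469, 511 and 462 with both agents. With the inhibitor, all libraries lay above those of the matching group without it, and TGFβ libraries overlapped the controls. The inhibitor's changes were 0.28 ± 0.10 without TGFβ (adjusted p 0.102) and 0.31 ± 0.10 with it (adjusted p 0.0581), both short of the call. The first was called without TGFβ replicate 2 (adjusted p 0.0106), with sample quality weights in voom (0.00184) and with only the 2 groups compared (0.000422). The second was called without TGFβ replicate 3 (0.0114), with no filter on low counts (0.0313), in DESeq2 (0.0499) and in voom (0.0303). The combined group was 1.34-fold above control (0.42 ± 0.10, adjusted p 0.00355). The change with TGFβ alone was 0.11 ± 0.10 (adjusted p 0.439, and 0.045 without TGFβ replicate 2).

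*Ankrd1* was the 1 gene of the 10 that the inhibitor was called to lower without TGFβ and raise with it. *Ankrd1* (ENSMUSG00000024803) encodes an ankyrin-repeat protein of muscle sarcomeres and the nucleus and is among the most used readouts of YAP and TAZ activity. Its level was 1038, 1063 and 1047 CPM in control cells and 542, 543 and 559.6 with the inhibitor. With TGFβ it was 2704, 2386 and 3309 CPM, and in the combined group 3705, 4147 and 3594. The 4 groups were fully separated, in the order combined, TGFβ, control and inhibitor. The coefficient of variation was 1.22% in control cells and 1.80% with the inhibitor, against 16.7% with TGFβ and 7.66% in the combined group.

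The inhibitor alone lowered *Ankrd1* 1.91-fold, from 1049 ± 12.7 to 548 ± 9.88 CPM (SD, n = 3; -0.94 ± 0.11, adjusted p 1.88e-05). TGFβ alone raised it 2.67-fold, to 2799.8 ± 469 CPM (1.42 ± 0.11, adjusted p 9.95e-09). In TGFβ-treated cells the inhibitor went with a level 1.36-fold higher, 3816 ± 292 CPM (0.45 ± 0.11, adjusted p 0.0124). That last call was lost without combined replicate 2 (adjusted p 0.0505) and with only the 2 groups compared (0.142). In cells with the inhibitor, TGFβ raised *Ankrd1* 6.96-fold (2.80 ± 0.12, adjusted p 1.44e-12), and the combined group was 3.64-fold above control (1.86 ± 0.11, adjusted p 2.87e-10).

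The inhibitor's effect on *Ankrd1* therefore differed with and without TGFβ, and the test of that difference passed. This test does not address the opposite signs, which rest on the weaker call in TGFβ-treated cells. The change there stayed positive under all 20 alternatives (0.35 to 0.59) and was called in 18. The interaction was 1.38 ± 0.15 on the log2 scale, a 2.61-fold difference between the inhibitor's effects (adjusted p 0.000134). By p-value it ranked 4 of 13581 genes. It was called under all 19 alternatives tried, with values from 1.30 to 1.52, including each fit that left out 1 library. The other 9 genes had interactions from -0.20 (*Tead2*) to 0.88 (*F3*), none called.

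**Figure D2:**
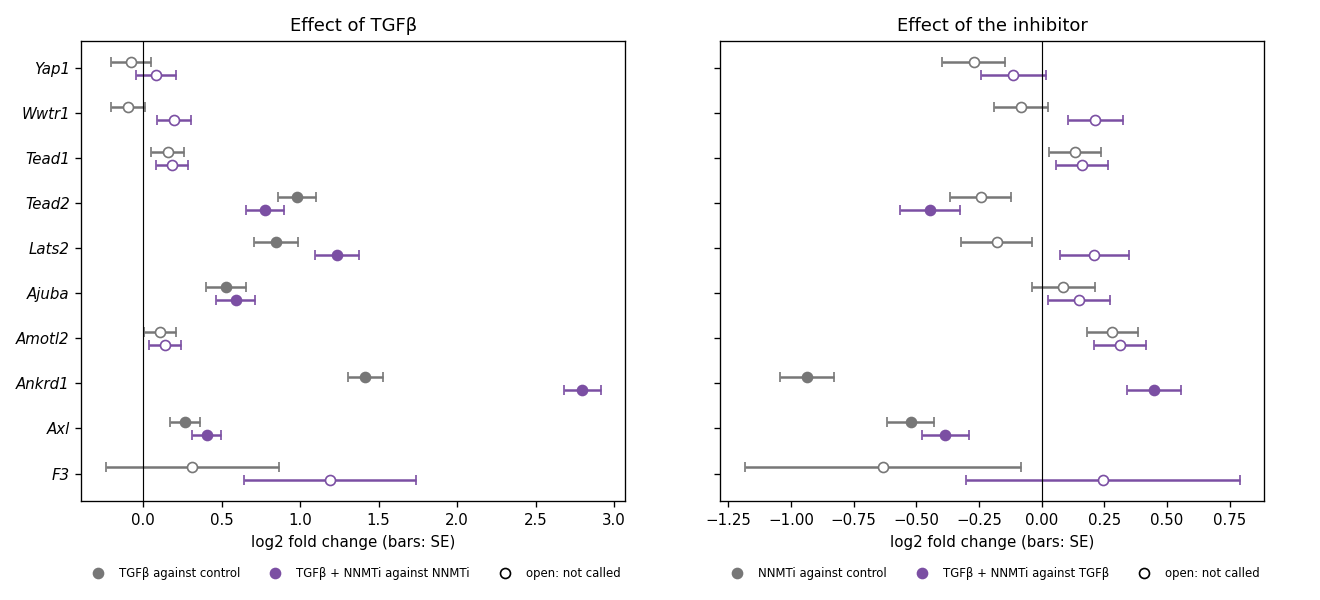
Log2 fold changes ± SE (edgeR) of the 10 genes for the effect of TGFβ, without and with the inhibitor (left), and the effect of the inhibitor, without and with TGFβ (right). Filled points were called, and in the right panel *Ankrd1* is the called gene with opposite signs, -0.94 without TGFβ and 0.45 with it.

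*Axl* (ENSMUSG00000002602), a receptor tyrosine kinase for GAS6, moved down with the inhibitor in both settings. It had 409.8, 416 and 424 CPM in control cells, 306, 282 and 282 with the inhibitor, 497, 560.3 and 445 with TGFβ, and 391, 373 and 388 with both agents. The 4 groups did not overlap, with TGFβ highest and the inhibitor alone lowest. The inhibitor lowered *Axl* 1.44-fold without TGFβ (-0.52 ± 0.09, adjusted p 0.00145) and 1.31-fold with it (-0.38 ± 0.09, adjusted p 0.0134). The second call was lost without combined replicate 2 (adjusted p 0.0523) or 3 (0.0517) and with only the 2 groups compared (0.145). The interaction was 0.14 (adjusted p 0.781).

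TGFβ raised *Axl* 1.2-fold (0.27 ± 0.09, adjusted p 0.0325) and, beside the inhibitor, 1.32-fold (0.40 ± 0.09, adjusted p 0.00231). The first of these was fragile, since it was lost without any 1 library other than TGFβ replicate 3 and combined replicate 2 (adjusted p 0.0528 to 0.104 over the 10 such fits). It was also lost with scaling by library size only (0.12), no filter on low counts (0.0952) and only the 2 groups compared (0.129). The combined group differed from control by -0.12 ± 0.09 (adjusted p 0.367, and 0.0489 with library size only).

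*F3* (ENSMUSG00000028128), which encodes tissue factor, the starter of the clotting cascade, had the widest relative spread of the 10 genes in the controls, the TGFβ group and the combined group. Its level was 70.0, 45.2 and 41.8 CPM in control cells, 35.8, 33.6 and 31.8 with the inhibitor, 79.4, 20.4 and 104 with TGFβ, and 103, 42.3 and 86.1 with both agents. The inhibitor libraries lay below the controls, but TGFβ replicate 2 was the lowest of all 12 libraries and its group's other 2 were above every control. No comparison of *F3* was called. The inhibitor gave -0.63 ± 0.55 (adjusted p 0.583, and 0.016 with only those 2 groups), and TGFβ 0.31 ± 0.55 (±2 SE from -0.79 to 1.41, adjusted p 0.705). The combined group against the inhibitor gave 1.19 ± 0.55 (adjusted p 0.128, 0.0247 without TGFβ replicate 2 and 0.0377 in voom).

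The same TGFβ library, replicate 2, stood apart for related targets, and also over the tested genes at large. By chi-square per degree of freedom its counts differed from replicates 1 and 3 by 43.8 and 32.9, against 6.36 between those libraries. In the combined group replicate 2 also differed most, by 12.9 and 10.7, against 4.61 between replicates 1 and 3. *Ccn2* (connective tissue growth factor) and *Ccn1* (CYR61) are secreted matricellular proteins and classical YAP targets. *Ccn2* (ENSMUSG00000019997) had 506, 489 and 377 CPM in control cells, 245, 252 and 188 with the inhibitor, 4088, 946 and 4262 with TGFβ, and 6730.2, 3132 and 6384 with both agents. *Ccn1* (ENSMUSG00000028195) had 1099.6, 1021 and 934 CPM in control cells, 903, 981 and 744 with the inhibitor, 1510.0, 519 and 1584 with TGFβ, and 2729, 1720.4 and 2595 with both agents. With TGFβ, replicate 2 was at 0.222 of the mean of the other 2 libraries for *F3*, 0.227 for *Ccn2* and 0.335 for *Ccn1*, against 0.794 for *Ankrd1*. In the combined group replicate 2 was also the lowest for these 3 genes, at 0.447, 0.478 and 0.646, but the highest for *Ankrd1*, at 1.14. In the controls the 4 ratios were 0.808, 1.11, 1.00 and 1.02.

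*Ccn2* rose 6.77-fold with TGFβ (2.76 ± 0.55, adjusted p 0.00384) and 23.7-fold beside the inhibitor (4.57 ± 0.59, adjusted p 0.000315). With the inhibitor alone it was lower in every library, but the fitted change of -1.0 ± 0.52 was not called (adjusted p 0.321, and 0.00618 with only the 2 groups compared). Its interaction of 1.81 ± 0.73 had the sign of that of *Ankrd1* and was not called (adjusted p 0.426). *Ccn1* differed by 0.24 ± 0.36 with TGFβ (adjusted p 0.657, and 0.0306 without TGFβ replicate 2). The combined group exceeded the inhibitor 2.68-fold for *Ccn1* (1.42 ± 0.37, adjusted p 0.0139, and 0.0568 without inhibitor replicate 3).

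Among the 10 genes TGFβ replicate 2 was the lowest of its group for *Ankrd1*, *Yap1*, *Amotl2*, *Lats2* and *F3* and the highest for *Wwtr1*, *Tead1*, *Tead2*, *Ajuba* and *Axl*. It was thus never the middle library for these genes. The share of all genes with that position was not computed, and this library also differed most of its group over the tested genes at large. The median coefficient of variation over the 10 genes was 16.3% with TGFβ, 4.03% in control cells, 5.92% with the inhibitor and 6.59% with both agents.

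**Figure D3:**
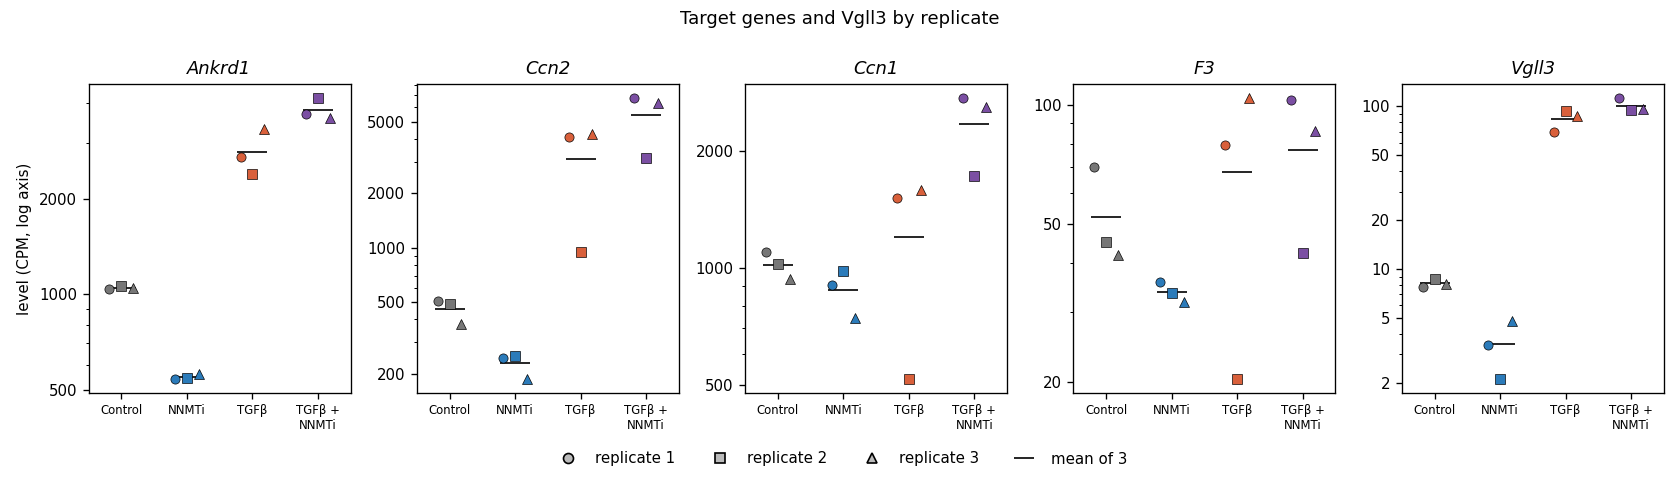
Level in CPM (log axes) of *Ankrd1*, *Ccn2*, *Ccn1*, *F3* and *Vgll3* in each library, with a symbol for each replicate number and a line for the group mean. TGFβ replicate 2 (square) falls to 946, 519 and 20.4 CPM for *Ccn2*, *Ccn1* and *F3* but stays near the other 2 libraries for *Ankrd1* and *Vgll3*.

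The rest of the pathway was read from 4 lists that overlap in part and hold 54 genes, the 10 above included. Of these 49 were tested, 39 of them outside the 10. With TGFβ 13 of the 39 rose and 10 fell, 59.0% called against 36.5% of all tested genes. With the inhibitor 3 rose and 9 fell, 30.8% against 8.27%. Between the combined group and TGFβ 4 rose and 4 fell, 20.5% against 10.4%. The lists were chosen with earlier results known, so these shares are a description. The median change of all 49 was 0.23 with TGFβ against 0.02 over all tested genes, and -0.09 with the inhibitor against 0.01. In the combined group against TGFβ it was 0.06 against -0.02. Of 44 pathway genes outside the 10, *Dchs1*, *Vgll1* and *Vgll2* had no counts, and *Foxf2* and *Rbms3* were too low to test.

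Among 15 core kinases and adaptors, TGFβ raised 6 and lowered 4, 66.7% called against 36.5% of all tested genes. *Stk4*, which encodes MST1, rose 1.71-fold (0.78 ± 0.19, adjusted p 0.0038), *Mob1a*, a LATS coactivator, 1.38-fold (0.47 ± 0.12, adjusted p 0.00409), and *Wwc2*, *Frmd6*, *Taok3* and *Lats2* also rose. *Sav1*, *Wwc1*, *Taok1* and *Taok2* fell. The rise of *Frmd6* (0.37 ± 0.12, adjusted p 0.0221) was lost without control replicate 1, 2 or 3 (adjusted p 0.0665, 0.0511 and 0.0738), without TGFβ replicate 3 (0.0642) and with scaling by library size only (0.0833). With the inhibitor alone only *Frmd6* was called in this list, 6.67% against 8.27% of all tested genes. *Frmd6*, an upstream FERM-domain adaptor, fell 1.64-fold from 70.1 ± 1.66 to 42.7 ± 5.03 CPM (-0.72 ± 0.12, adjusted p 0.000916). Between the combined group and TGFβ 3 genes of this list were called, 20% against 10.4% of all tested genes. *Wwc2* and *Taok2* were higher and *Frmd6* was lower (-0.46, adjusted p 0.0215 in edgeR, called under 16 of 20 alternatives). *Taok2*, a kinase upstream of MST1 and MST2, was 1.61-fold higher, from 69.1 ± 20.0 to 109 ± 7.15 CPM (0.69 ± 0.15, adjusted p 0.00745). Without combined replicate 3 the *Taok2* call was lost (adjusted p 0.0502), as it was after thinning (0.0645) and with only the 2 groups compared (0.108).

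Of the list of proteins that bind YAP and TAZ or restrain LATS, which also holds *Fat1* and *Fat4*, 9 were tested. TGFβ raised *Ajuba* and *Amotl1* and lowered *Amot* and *Ptpn14*, 44.4% called against 36.5% of all tested genes. The angiomotin genes, whose products hold YAP at junctions and on actin, diverged. *Amot* had 181, 196 and 217 CPM in control cells, 95.7, 103 and 112 with the inhibitor, 34.7, 21.6 and 34.8 with TGFβ, and 21.9, 25.2 and 23.0 with both agents. It fell 6.67-fold with TGFβ (-2.74 ± 0.15, adjusted p 1.42e-10) and 1.91-fold with the inhibitor (-0.94 ± 0.14, adjusted p 0.000234). *Amotl1* rose 2.05-fold with TGFβ (1.04 ± 0.12, adjusted p 1.19e-06), and *Amotl2* is given above.

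Of the coactivators, TEAD factors and VGLL cofactors, 8 were tested, and TGFβ raised *Tead2*, *Tead3* and *Vgll3*. That is 37.5% called, near the 36.5% of all tested genes. *Tead3* rose 1.45-fold (0.53 ± 0.17, adjusted p 0.0163), and *Tead4* differed by 0.39 ± 0.24 (adjusted p 0.234). *Vgll3* (ENSMUSG00000091243), a vestigial-like cofactor that binds TEAD proteins in place of YAP or TAZ, had 7.81, 8.72 and 8.16 CPM in control cells and 3.41, 2.13 and 4.80 with the inhibitor. It had 69.9, 94.1 and 87.6 CPM with TGFβ and 112, 94.4 and 96.1 with both agents. TGFβ raised *Vgll3* 10.2-fold (3.35 ± 0.18, adjusted p 7.9e-11), and the inhibitor alone lowered it 2.36-fold (-1.24 ± 0.22, adjusted p 0.00145). In TGFβ-treated cells the inhibitor's change was 0.27 ± 0.15 (adjusted p 0.283). The interaction of 1.51 ± 0.27 (adjusted p 0.00702) made *Vgll3* the other called gene of the 49 besides *Ankrd1*, and it ranked 51 of 13581.

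Of 22 common YAP and TAZ targets, 20 were tested. With TGFβ 8 rose and 5 fell (median 0.25), 65% called against 36.5% of all tested genes. With the inhibitor 3 rose and 7 fell (median -0.22), 50% against 8.27%. Between the combined group and TGFβ 3 rose (*Ankrd1*, *Gadd45a* and *Nuak2*) and 3 fell (*Axl*, *Fjx1* and *Ccdc80*), with a median of 0.13. These were 30% of the tested targets, against 10.4% of all tested genes.

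Other targets changed in the same comparisons. *Ccdc80*, a secreted matrix protein, had 606, 603 and 599 CPM in control cells, 200.3, 212 and 213 with the inhibitor, 878, 983 and 822 with TGFβ, and 349, 416 and 311 with both agents. The inhibitor lowered it 2.89-fold alone (-1.53 ± 0.11, adjusted p 4.61e-08) and 2.50-fold with TGFβ (-1.32 ± 0.11, adjusted p 3.45e-07). Its interaction was 0.21 (adjusted p 0.677). *Gadd45a*, a stress sensor of DNA damage, had 43.8, 31.4 and 44.4 CPM with TGFβ and 113, 90.0 and 100.2 with both agents, a 2.57-fold rise (1.36 ± 0.13, adjusted p 2.2e-06). Its mean was 70.8 CPM in control cells and 111 with the inhibitor alone, which also raised it (0.64, adjusted p 0.00221 in edgeR). TGFβ alone lowered it (-0.85, adjusted p 4.24e-05), and the combined group stood 0.51 above control (adjusted p 0.0033). The interaction of 0.72 was not called (adjusted p 0.0602), but it was called under 7 of 19 alternatives. The kinase gene *Nuak2* was 1.39-fold higher in the combined group than with TGFβ (0.47 ± 0.13, adjusted p 0.0293). This call was lost without TGFβ replicate 1 (0.116) and combined replicate 1 (0.0584) or 3 (0.0644), after thinning (0.053) and with only the 2 groups compared (0.104).

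*Tgfb2*, a TGFβ ligand, fell 1.99-fold with the inhibitor, from 196 ± 7.20 to 98.2 ± 2.01 CPM (-0.99 ± 0.12, adjusted p 2.56e-05). TGFβ alone raised *Tgfb2* (0.65, adjusted p 0.000266 in edgeR). The combined group stood 0.33 above control (adjusted p 0.0355, called under 13 of 20 alternatives). The *Tgfb2* interaction of 0.68 was not called (adjusted p 0.0572), but it was called under 7 of 19 alternatives. *Nt5e* (CD73), an ecto-enzyme that makes adenosine, rose 4.17-fold with TGFβ, from 46.8 ± 4.17 to 195 ± 12.0 CPM (2.06 ± 0.11, adjusted p 7.16e-11). *Dock5*, an activator of the GTPase Rac, was 3.72-fold higher in the combined group than in control, 27.5 ± 2.45 against 7.40 ± 1.11 CPM (1.90 ± 0.17, adjusted p 8.12e-08).

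**Figure D4:**
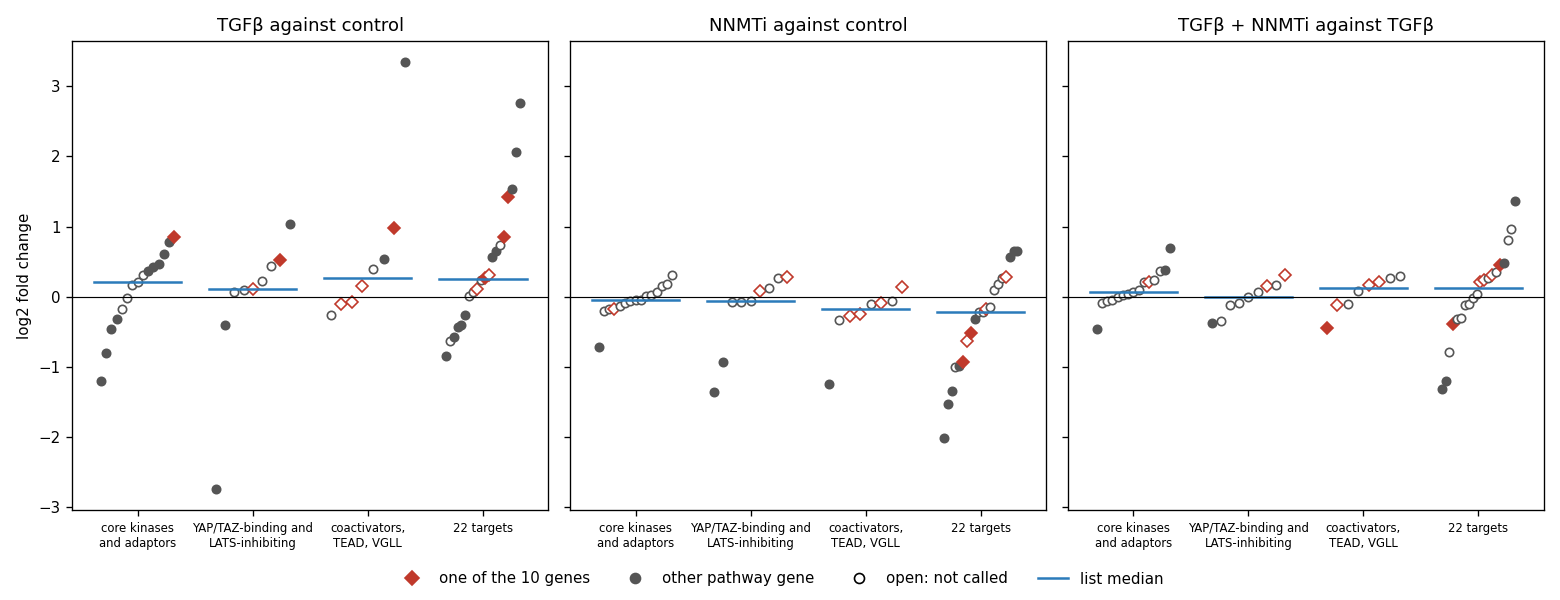
Log2 fold changes of the tested genes of the 4 pathway lists for TGFβ against control, the inhibitor against control and the combined group against TGFβ. Each point is a gene, filled where called, and the targets spread to both sides of 0 in each comparison.

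The genes whose levels moved most like those of *Ankrd1* were sought over all 9747 tested genes at 10 CPM or more in a group. The measure was the root mean square difference from *Ankrd1* over the 3 log2 fold changes from control (inhibitor, TGFβ and combined), which share the control libraries. The nearest 5 were *Actn1*, which encodes the actin crosslinker alpha-actinin, at 0.163, then *Basp1*, a membrane-bound signalling protein, at 0.199, *Pdgfb*, a growth factor for mesenchymal cells, at 0.201, *Dse*, an enzyme of dermatan sulfate synthesis, at 0.213, and *Fgd3*, an exchange factor for Cdc42, at 0.222. *Actn1* had mean levels of 857 CPM in control cells, 499 with the inhibitor, 2581 with TGFβ and 2796 with both agents. *Fgd3* had a lower mean in the combined group (140 CPM) than with TGFβ (147 CPM), unlike *Ankrd1*. The nearest pathway gene was *Lats2*, at rank 224 with a difference of 0.717. The measure weighs the size of the changes as well as their direction. For example, *Ccn2* and *Vgll3* had the signs of *Ankrd1* in all 3 changes, which were larger, and ranked 2664 and 5849.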

How the data were processed

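Messenger RNA from 12 im-TEC libraries was sequenced with the QuantSeq 3′ kit, which reads transcript ends, from 100 ng of RNA per library, per the labels' protocols. The authors deposited whole-number counts per gene. STAR and HTSeq, with no versions, and the build GRCh38 are named in the submitters' processing notes. GRCh38 is a human build although the identifiers are mouse Ensembl, so no gene positions are given other than those of the RefSeq promoter windows. The strand used in counting is not given in the sources used here. Rows that name no gene were left out of library sizes, and reads without a feature were 21.1 to 26.8% of counts.

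Symbols were matched for 55141 of 55487 identifiers. Genes were filtered with filterByExpr, scaled by TMM and fitted in edgeR 4.0.16 (R 4.3.3, limma 3.58.1) with 1 mean per group over all 12 libraries, robust quasi-likelihood F-tests and Benjamini-Hochberg adjustment over 13581 genes, called at 0.05. SE is the log2 fold change over the root of F. The procedure was tested on simulated data with the same spread in every library, so that test does not cover the unequal spread of the groups here. The 10 genes, the lists and the tests were chosen with earlier results of these data known. Named pathway genes were *Ccn1* and *Ccn2* and, in each comparison, the 4 largest called changes at 10 CPM or more. *Stk4*, *Mob1a*, *Tead3*, *Tead4*, *Amotl1* and the genes named in counts were added after their values were seen. Alternatives were RLE factors, library size only, no filter on low counts, DESeq2 1.42.0, a replicate block, thinning to 2584117 counts, voom with sample quality weights, only the 2 groups compared, and leaving out each library. No pair of replicates was a duplicate, as their counts differed by a chi-square of 3.26 to 43.8 per degree of freedom. The highest value was that of TGFβ replicates 1 and 2.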

Additional observations from a re-analysis of the deposited data

Results flagged for a closer look

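The interactions of 2 genes stood out because the effect of the inhibitor differed between cells with and without TGFβ by a test of the difference itself (edgeR interaction, adjusted p below 0.05). For *Ankrd1* the inhibitor's effect with TGFβ minus its effect without was 1.38 on the log2 scale (adjusted p 0.000134). For *Vgll3* the same difference was 1.51 (adjusted p 0.00702). *Ankrd1* was lower in 3 of 3 inhibitor libraries than in any control and higher in 3 of 3 combined libraries than in any TGFβ library. *Vgll3* was lower in 3 of 3 inhibitor libraries (31, 18 and 44 counts) than in any control. Its libraries in the combined group were all above those of the TGFβ group, the closest pair being 94.4 and 94.1 CPM. That change was not called (0.27, adjusted p 0.283 in edgeR), and it was called under 1 of 20 alternatives. Over all tested genes, libraries did not overlap for 35.6% with the inhibitor and 23.9% between the combined group and TGFβ. Both interactions were called under all 19 alternatives, with differences of 1.30 to 1.52 for *Ankrd1* and 1.31 to 1.92 for *Vgll3*.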

How the results depend on the processing

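No value of the 10 genes or of the named pathway genes reversed its called direction under an alternative. Of the 10 genes, the 2 called with the inhibitor became 4 with voom weights and 5 with only the 2 groups compared, and the 3 called between the combined group and TGFβ became 5 and 0. In that last fit (edgeR) 4 of the 10 had an unadjusted p below 0.05, and DESeq2 on all libraries called 4. Of the 54 pathway genes, the 11 called between the combined group and TGFβ became 17 with voom weights and 2 with only the 2 groups compared, and the 2 interactions became 4 with no filter on low counts, 5 in DESeq2 and 7 with voom weights. The cause was not tested.

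Leaving out 1 library at a time gave 4 to 5 called genes of the 10 for TGFβ, 2 to 4 for the inhibitor, 5 to 8 for the combined group against the inhibitor, 5 to 6 against control, and 1 throughout for the interaction. Between the combined group and TGFβ it gave 0 to 5, with 0 without combined replicate 2 (5 at an unadjusted p below 0.05 in edgeR), 1 without combined replicate 3 and 5 without TGFβ replicate 3. The 8 came without TGFβ replicate 2. For the pathway genes the ranges were 23 to 31 of 28 called with all libraries for TGFβ, 10 to 19 of 14 for the inhibitor, 4 to 13 of 11 for the combined group against TGFβ, 25 to 36 of 29 against the inhibitor, 23 to 32 of 31 against control, and 2 to 6 of 2 for the interaction, the 6 without TGFβ replicate 2.

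Scaling by library size only moved the split of all called genes from 335 higher and 788 lower to 204 and 1036 for the inhibitor, and from 2077 and 2244 to 1404 and 2899 for the combined group against control, where it shifted the median of all genes by -0.116. Over all genes, the 1123 calls for the inhibitor became 2931 with only the 2 groups compared, 3064 with voom weights and 642 after thinning. The 1416 for the combined group against TGFβ became 408 with only those groups and 832 after thinning. The 151 interactions became 306 with no filter, 266 in DESeq2, 483 with voom weights and 95 after thinning. Without TGFβ replicate 2 the all-gene calls were 2179 for the inhibitor and 399 for the interaction, and without 1 control or inhibitor library 591 to 684 and 65 to 93. For the combined group against TGFβ they were 856 and 762 without combined replicates 1 and 3.

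No clear pairing of the libraries by replicate number was seen, though 3 libraries a group cannot exclude a weak one. Deviations of same-numbered libraries correlated with a median of 0.0244 (18 pairs, 1 above 0.1), against -0.0123 for 36 pairs with different numbers. The deviations were taken from each group's own mean, which ties these medians to each other. A replicate block left the counts of the 10 genes at 5, 2, 3, 5, 6 and 1 over the 6 comparisons, and the interaction of *Ankrd1* at 1.39 (adjusted p 0.000294).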
